A study of Mus musculus with 4 samples.

Results

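Among fibroblasts of the mouse ascending aorta, 802 cells with RNA of Comp or Chad were singled out from 6429 fibroblasts and 31676 cell barcodes in 3 single-cell libraries. Comp encodes cartilage oligomeric matrix protein, a secreted glycoprotein that binds collagen fibrils, and Chad encodes chondroadherin, a cartilage matrix protein that binds collagen and integrins. A cell entered the fibroblast gate with at least 500 detected genes, at most 10% mitochondrial UMIs (unique molecular identifiers, each standing for 1 captured transcript), at least 1 UMI of Pdgfra, at least 5 of Dcn, at most 2 of Myh11 and 0 of Ptprc and Pecam1. A gated cell was counted as Comp or Chad positive with at least 2 UMIs of either gene, so the levels of Comp and Chad chose the cells and are given as a description with no test. The comparison cells were gated fibroblasts of the same library with 0 UMIs of both genes, 5249 in all, and 378 cells with 1 UMI stood between the classes.

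The cells came from the aortas of male mice of the strain Mef2c-mTmG, in which a reporter marks cells by lineage, and live single cells were sorted on that marking. SHF denotes derivation from the second heart field, and CNC is the labels' name, not spelled out there, for the other lineage. The study asked how cells of these origins differ in their response to angiotensin II (AngII), the pressor peptide of the renin-angiotensin system. The libraries were SHF Baseline (untreated), SHF AngII (3 days of infusion) and CNC AngII (3 days of infusion), 1 library per group. CNC Baseline was not analysed here. The labels give neither the age of the mice nor how many mice went into a library, and the files hold no measure of the sort, so a library of a lineage is one by its label.

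Fibroblasts of the aortic adventitia make and maintain the collagen-rich outer coat of the vessel. Some connective tissues under load, such as tendon, ligament, heart valves and articular cartilage, contain cells that secrete Comp, Chad, fibromodulin and lubricin, proteins that organise collagen fibrils or ease sliding. Cartilage itself is defined by type II collagen and aggrecan, made under the transcription factor Sox9.

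The libraries held 9412, 11166 and 11098 barcodes with 92474476, 147854476 and 150954701 UMIs, in the order SHF Baseline, SHF AngII and CNC AngII, which is kept below. Between 29 and 34 barcodes occurred in each pair of libraries, and 0 were positive cells in both. The doublet caller Scrublet marked 207, 192 and 279 barcodes, and among the positive cells 6, 0 and 1. Positive cells had medians of 9540, 18804 and 14730 UMIs, against 9139, 14965 and 11159 in cells with both genes at 0. The AngII libraries were therefore deeper, and their positive cells were deeper than the comparison cells, which matters for any threshold on UMIs.

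Positive cells made up 200 of 3262 gated fibroblasts in SHF Baseline (6.13%, 95% exact Clopper-Pearson interval 5.33 to 7.01), 394 of 2398 in SHF AngII (16.4%, 15.0 to 18.0) and 208 of 769 in CNC AngII (27.0%, 23.9 to 30.3). After each cell was thinned to 5000 UMIs, with 670, 119 and 64 shallower cells left out, the shares were 5.52% (4.67 to 6.47), 9.26% (8.10 to 10.5) and 18.7% (15.9 to 21.8). Intervals here and below cover counting error only. The summed level of Comp over the whole gate did not follow the same order, at 154 CPM (summed UMIs of the gene scaled to a total of 1000000), 112 and 242. Since between the SHF libraries the share stood higher with AngII while the level stood lower, no order is read between them. CNC AngII had both the highest share and the highest level, in 1 library without a replicate. Chad over the gate stood at 52.7, 2.23 and 6.85 CPM.

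The same threshold was applied to other cell types of the same libraries. Of smooth muscle cells (gated on Myh11), which held some cartilage RNA themselves, such as that of aggrecan given below, 2.49, 1.35 and 2.34% passed, with median depths of 12427.5, 13360 and 13416 UMIs, and 1.56, 0.784 and 0.669% after thinning. In CNC AngII, 0 of 1395 macrophages passed at a median of 11637 UMIs, which allows a share of up to 0.215%. The endothelial gate held 1 passing cell of 35, 0 of 22 and 0 of 26. In the plot of these shares the fibroblast bars stand above the smooth muscle bars in every library, before and after thinning.

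**Figure D1:**
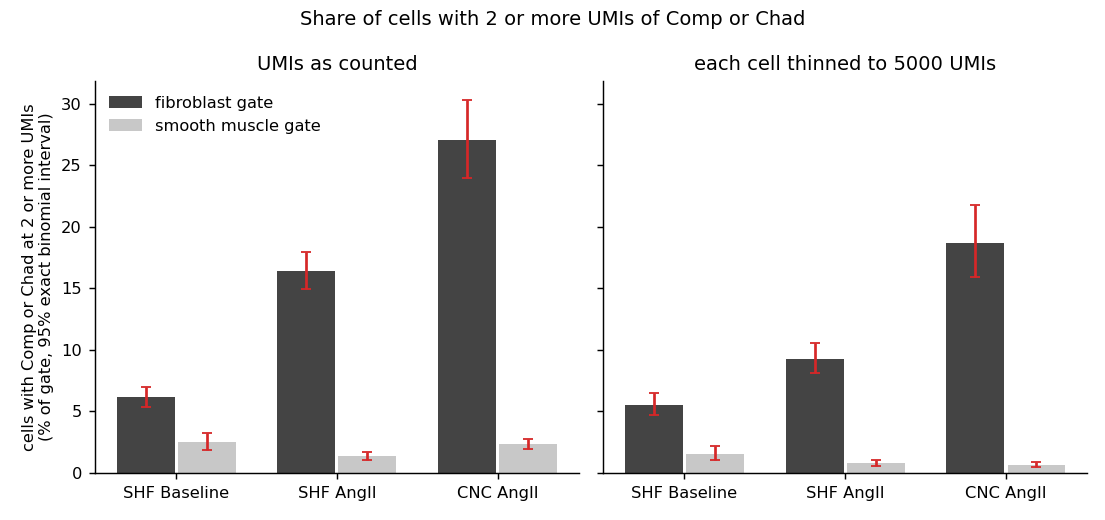
Share of gated cells with at least 2 UMIs of Comp or Chad (vertical axis, percent of the gate) in each library (horizontal axis), for the fibroblast gate (dark bars) and the smooth muscle gate (light bars), with UMIs as counted on the left and thinned to 5000 per cell on the right; lines are 95% exact binomial intervals. The fibroblast share is 6.13, 16.4 and 27.0% as counted and 5.52, 9.26 and 18.7% after thinning.

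Comp, on chromosome 8 (mm10 chr8:70373558-70382066, plus strand, ENSMUSG00000031849.9), chose most of the cells. A positive cell held a median of 6, 6 and 7 Comp UMIs, with highest cells of 404, 119 and 166, and the summed level was 2179, 558 and 763 CPM. Cells exactly at the threshold of 2 UMIs were 34, 71 and 32 of the positive cells, and those just outside it, with 1 UMI, were 127, 187 and 64. At least 10 UMIs were found in 86, 125 and 78 cells. In SHF Baseline the 20 cells highest for Comp held 58.6% of its UMIs among positive cells.

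Chad, on chromosome 11 (mm10 chr11:94565047-94569127, plus strand, ENSMUSG00000039084.8), chose few. At least 2 Chad UMIs were found in 41 of the 200 positive cells of SHF Baseline (20.5%), 12 of 394 in SHF AngII (3.05%) and 3 of 208 in CNC AngII (1.44%), and the summed level was 757, 10.3 and 22.1 CPM. Most of those cells also passed on Comp, namely 34, 6 and 2. Among gated fibroblasts with at least 2 Comp UMIs, 19.2, 2.84 and 0.966% had any Chad UMI, against 0.710, 0.710 and 0% (0 of 497, which allows up to 0.604%, 3 counts of the total) of fibroblasts with Comp at 0. A single cell held 69.4% of the Chad UMIs of CNC AngII, so the values there describe single cells. The 250 bases before the start of Chad, from RefSeq on GRCm38.p6 (chr11:94564797-94565046, plus strand), are shown because Chad sets apart the cells described further on, and a TATA box (TATAAA, in capitals) begins 28 bases before the start.
Chad: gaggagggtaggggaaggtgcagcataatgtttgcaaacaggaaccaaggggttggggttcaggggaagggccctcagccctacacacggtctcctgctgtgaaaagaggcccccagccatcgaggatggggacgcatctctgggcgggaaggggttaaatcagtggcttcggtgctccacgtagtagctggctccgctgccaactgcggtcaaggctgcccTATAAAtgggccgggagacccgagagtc
On both strands of this window AACAAT, a core bound by Sox proteins, and CAGATG, an E-box bound by scleraxis, had 0 matches, and no motifs overlapped. Of all 32851 windows of this length, 9.42% hold AACAAT, 14.4% CAGATG and 12.4% TATAAA. RefSeq windows matched 9 of 16 genes (Comp, Chad and the 14 genes highest in SHF Baseline, named below), and TATAAA was in 3 of them (Chad, Spp1 and Wif1), AACAAT in 1 (Cilp2) and CAGATG in 0. Comp had no entry.

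The other 4 genes named with this group of cells were Angptl7 (an angiopoietin-like secreted protein), Fmod (fibromodulin, which steers collagen fibril assembly), Prg4 (lubricin) and Cytl1 (a small secreted protein known from cartilage). They were picked with results of these libraries in view and are described with no test. Cytl1 stood at 1282, 71.5 and 86.0 CPM in positive cells and at 118, 22.2 and 28.5 CPM in cells with Comp and Chad at 0. Prg4 stood at 377, 503 and 531 CPM against 42.3, 321 and 323. Both genes were higher in the positive cells of each library, and Prg4 was the only one of the 4 whose level in positive cells was not lower in the AngII libraries than in SHF Baseline.

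Angptl7 stood at 999, 80.6 and 34.7 CPM in positive cells and 359, 48.5 and 24.4 in the others. Fmod stood at 534, 82.6 and 94.3 CPM against 214, 76.6 and 89.3, which left a difference in SHF Baseline and almost none in the AngII libraries (log2 ratios 1.31, 0.11 and 0.08). All 4 genes were detected together in 11.5% of positive cells of SHF Baseline against 0.341% of the comparison cells, and in 0.508 against 0.220% and 0.481 against 0.402% in the AngII libraries. These genes were unevenly spread: in SHF Baseline the 20 highest cells held 84.5% of the Cytl1, 78.7% of the Prg4, 67.9% of the Angptl7 and 61.2% of the Fmod UMIs of the positive cells. In CNC AngII 1 cell held 45.4% of the Cytl1 UMIs, and without the 3 cells with Chad the log2 ratio of Cytl1 there turned from 1.56 to -0.44.

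Aggrecan and type II collagen, which define cartilage, were low when summed over all positive cells. Aggrecan (Acan) stood at 12.0, 3.44 and 2.76 CPM in positive cells and 0.0746, 0.576 and 2.52 CPM in the others, below the 21.0, 82.8 and 218 CPM of smooth muscle cells. Type II collagen (Col2a1) stood at 1.93, 2.80 and 15.0 CPM against 0, 0.0677 and 3.31. Summed over 14 chondrocyte markers, the level was 259.6, 63.6 and 60.2 CPM in positive cells and 73.3, 40.0 and 47.1 CPM in the others. Of the 14, 12, 10 and 9 were detected in positive cells, with Matn1 and Col10a1 at 0 in each library, and Sox9 alone gave 136, 52.5 and 36.5 CPM of the sums. Fibroblast genes that the gate did not use (Col1a1, Col1a2, Col3a1, Lum and Gsn) summed to 27235, 21903 and 18113 CPM in positive cells against 29546, 21192 and 17390 CPM in the others. The cells are therefore called Comp or Chad positive fibroblasts, after their rule, and no cartilage cell name is used.

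In SHF Baseline, positive cells held more RNA of a set of secreted matrix genes than the other fibroblasts and less of several adventitial genes. Of 7745 genes with a mean of at least 10 CPM, 114 stood past 2-fold higher in positive cells (1.47%) and 98 past 2-fold lower (1.27%), and for 72 and 37 of them the whole 95% counting interval lay past 2-fold. This is 1 library, so the ratios carry no replicate check. The 14 highest and 10 lowest genes with at least 50 CPM were chosen after the values were seen.

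Secreted matrix and signalling proteins led the higher genes. Cilp2, cartilage intermediate layer protein 2, stood at 104 CPM (90.6 to 119) in positive cells against 1.01 (0.664 to 1.47) in the others. Ecrg4, a secreted peptide precursor, stood at 2875 CPM (2802 to 2949) against 96.5 (92.8 to 100.2), and Wif1, a secreted Wnt inhibitor, at 724 against 45.8. Thbs1 (thrombospondin 1, which binds matrix and activates latent TGF-beta) stood at 875 against 113 CPM, Clu (clusterin, an extracellular chaperone) at 383 against 50.5, and Spp1 (osteopontin, a mineral-binding matrix protein) at 197 against 29.4. Their log2 ratios ranged from 5.71 (Cilp2) to 2.70 (Spp1). The 20 highest cells held 88.4% of the Cilp2 and 86.6% of the Wif1 UMIs of the positive cells, so these sums rest on few cells.

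Transcription factors were among them too. Scx (scleraxis, the regulator of tendon progenitors) stood at 129 CPM against 5.89, Tbx20 (a T-box factor of heart and valve development) at 123 against 24.8, and Trps1 (a GATA-type repressor of growth plate cartilage) at 152 against 38.9. Sox9 itself stood at 136 against 55.0 CPM. Kcnj15, Cox4i2 and Pdlim3 completed the highest genes, at 95.9 against 15.2, 109.8 against 23.1 and 91.0 against 22.0 CPM. Smooth muscle cells of the same library also held Pdlim3 (306 CPM), Clu (481), Wif1 (131), Kcnj15 (89.8) and Scx (40.8), but little Ecrg4 (16.5), Cytl1 (2.82) or Cilp2 (1.68). Summed over 8 smooth muscle markers, all detected, the level was 1836 CPM in positive cells and 1285 in the others, against 57036 CPM in the smooth muscle gate (in the AngII libraries 3673 against 4426 and 4219 against 4067 CPM), and their part in the result was not tested.

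Lower in positive cells of SHF Baseline were Adm (adrenomedullin, a vasodilator peptide) at 47.7 CPM against 176, Cd248 (endosialin, a surface protein of stromal cells) at 85.7 against 237, and C3 (complement component 3) at 228 against 617. Dpep1 (a membrane dipeptidase) stood at 201 against 544 CPM, and Hsd11b1, which regenerates active corticosteroid, at 66.5 against 177. Efemp1 (fibulin 3), Prss23, Ms4a4d, Tmem100 and Cpz made up the rest of the 10 lowest, with log2 ratios between -1.57 (Prss23) and -1.26 (Cpz). Pi16, the marker of a progenitor-like adventitial fibroblast, stood at 1534 CPM (1481 to 1588) against 3409.7 (3388 to 3432). It was detected in 63.5% of positive cells after thinning (70.0% as counted) and in 82.6% of the others (86.6%).

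Gene lists were read in SHF Baseline against all genes, where the median log2 ratio of all 7745 genes was -0.02. The genes that name the group were left out of the lists that held them. Of 8 cartilage matrix genes with at least 10 CPM, 4 stood past 2-fold higher (Matn4, Ucma, Cilp2 and Epyc) and 0 lower, with a median of 0.67. Of 15 chondrogenic regulators, 7 stood past 2-fold higher (Sox9, Sox6, Runx1, Runx2, Trps1, Bmp2 and Chrdl1) and 0 lower, median 0.95. Of 11 tendon and ligament genes, 4 stood past 2-fold higher (Scx, Thbs4, Thbs1 and Cilp2) and 0 lower, median 0.59. The 7 tenocyte markers, however, summed to a lower level in positive cells, 5229 against 6539 CPM, and 2 of the 4 with at least 10 CPM (Egr1 and Col1a1) lay below the comparison cells. Matn4 rested on few cells, since 1 cell held 43.2% of its UMIs, and the lists share members, such as Cilp2.

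Of 10 Wnt modulators, 4 stood past 2-fold higher (Wif1, Frzb, Dkk3 and Rspo3; median 0.32), and of 10 calcification genes 3 were higher (Spp1, Tnfrsf11b and Sost) and 1 lower (Smoc2; median 0.91). The adventitial progenitor list went the other way, with 6 of 13 past 2-fold lower (Pi16, Dpp4, Cd55, Anxa3, Cd248 and Efhd1), 0 higher and a median of -0.89. Of 16 fibrillar, fibril-associated and other collagens, 1 stood past 2-fold higher (Col8a2) and 0 lower. Only 4 of them had a log2 ratio above 0, with a median of -0.24, and the list summed to 16691 CPM against 20759 in the others. Elastic fibre genes (1 lower of 19, median -0.03) stood close to the other fibroblasts. So did TGF-beta genes (0 of 22, median -0.02) and unfolded protein response genes (0 of 20, median -0.12).

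**Figure D2:**
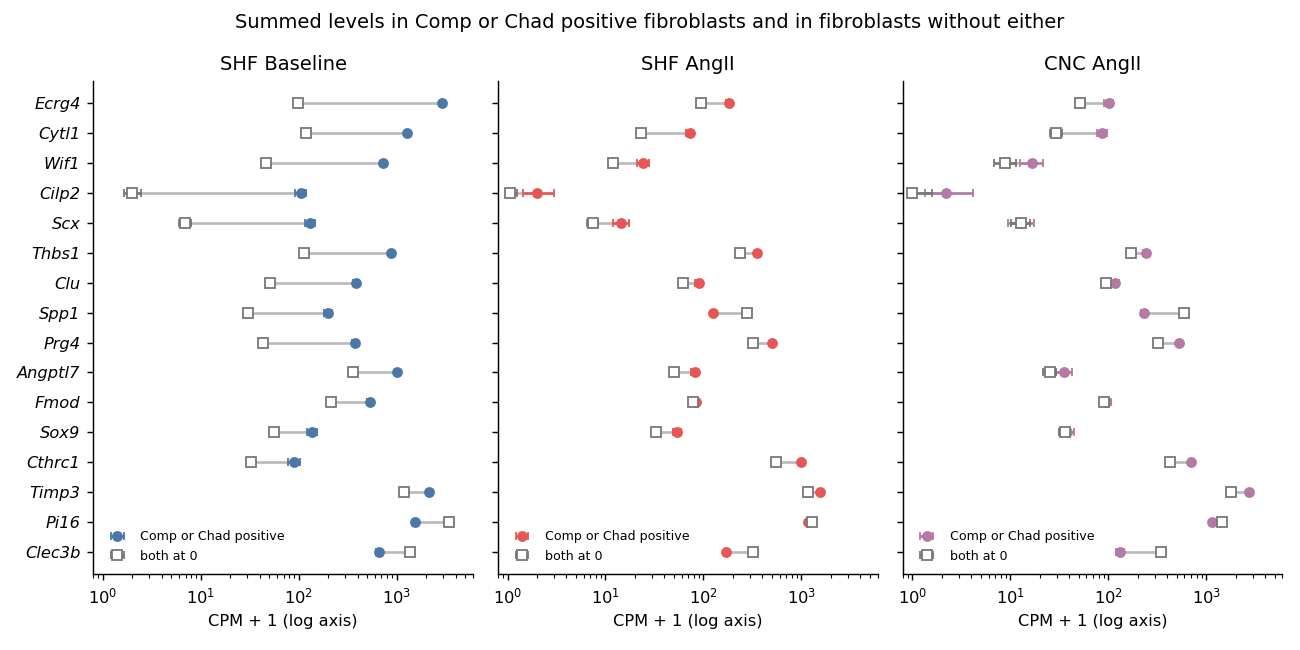
Summed level (horizontal log axis, CPM + 1) of 16 genes in Comp or Chad positive fibroblasts (filled circles) and in fibroblasts with both at 0 (open squares), 1 panel per library; lines are 95% exact Poisson intervals. The gap is wide for the matrix genes in SHF Baseline (Ecrg4 at 2875 against 96.5 CPM) and narrow in the AngII libraries (179 against 93.8 and 100.1 against 50.9 CPM).

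Positive cells of SHF Baseline were not uniform, and the 41 with at least 2 Chad UMIs carried much of the pattern. Chad positive cells held 8160.5 CPM of Ecrg4 against 839.9 in the 159 cells chosen by Comp alone, 2742 against 720.5 of Cytl1, and 2313 against 493 of Angptl7. Wif1 stood at 1575 against 397 CPM, Spp1 at 529 against 69.4, Cilp2 at 298 against 29.4, and Acan at 39.9 against 1.33. Even so, Comp-only cells lay above cells with both genes at 0 for each of these 7 genes. Pi16 did not separate these subsets, at 1525 CPM in Chad positive and 1537 in Comp-only cells, both below the 3409.7 CPM of the comparison cells. The subsets are drawn from the values the rule used and have no test, and Chad positive cells were deeper, with a median of 12532 UMIs against 9022.

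Cells at the threshold were between the classes for some genes and not for others. With exactly 2 UMIs, Ecrg4 stood at 522 CPM, Thbs1 at 349 and Scx at 56.3. With 1 UMI, outside the rule, the same genes stood at 376, 243 and 67.8 CPM. For Cytl1 the cells just inside, at 11.3 CPM, lay below those just outside, at 186 CPM, and likewise for Wif1 (78.9 against 323). In these sums the threshold of 2 UMIs therefore did not mark a step. With 34 cells just inside and 127 just outside, a few cells can set such a level. Among positive cells, 20 held 84.5% of the Cytl1 UMIs. Without the Chad positive cells, 71 genes stood past 2-fold higher (0.919% of 7726) and 85 lower (1.1%), and the log2 ratios were 3.11 for Ecrg4, 2.60 for Cytl1, 3.92 for Cilp2 and 3.09 for Wif1, but 0.46 for Angptl7 and 0.50 for Fmod.

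**Figure D3:**
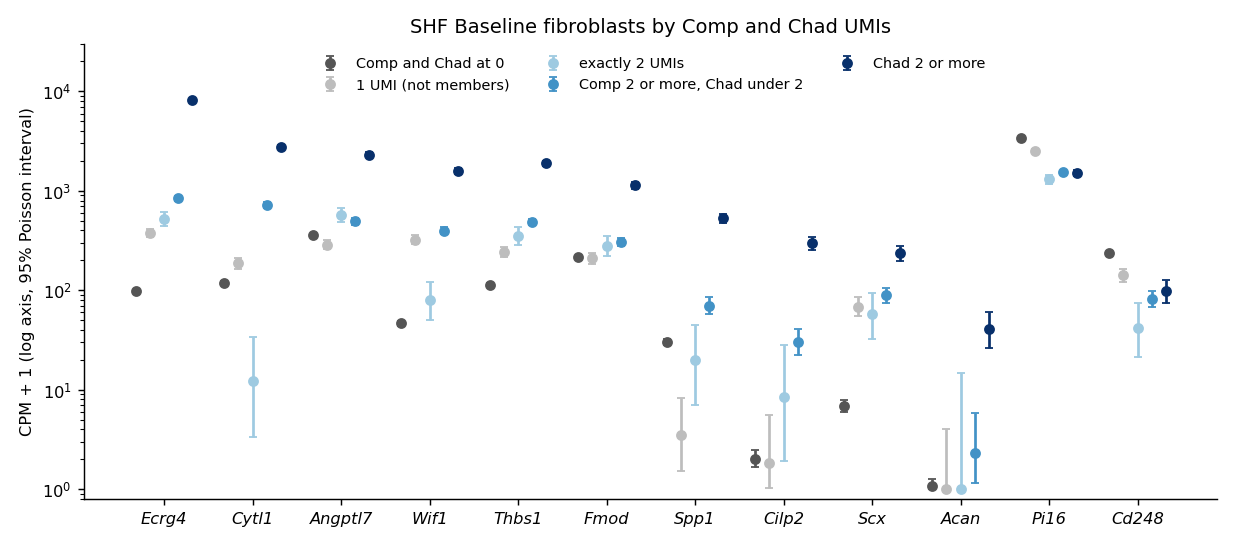
Summed level (vertical log axis, CPM + 1) of 12 genes in SHF Baseline fibroblasts divided by their Comp and Chad UMIs (colours): both at 0, 1 UMI, exactly 2 UMIs, Comp-only, and Chad at 2 or more; lines are 95% exact Poisson intervals. Chad positive cells are highest for every gene shown but Pi16 and Cd248, as for Ecrg4 at 8160.5 CPM against 839.9 in Comp-only cells.

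Chad positive cells of the AngII libraries were few but had a like profile for several genes. In the 12 such cells of SHF AngII, Ecrg4 stood at 1281 CPM (1125 to 1453, from 243 UMIs) against 152 in the 382 Comp-only cells, and Cytl1 at 717 (602 to 848) against 55.5. In the 3 of CNC AngII, Ecrg4 stood at 3156 CPM (2524 to 3898) against 74.3, and Cytl1 at 7817 (6802 to 8939.7) against 20.7. Spp1 stood at 2737 against 60.4 CPM in SHF AngII and at 7303 against 172 in CNC AngII, and type II collagen at 73.8 against 1.05 and 110.1 against 14.2. Clec3b, an adventitial gene described next, was at 36.9 against 172 and 0 against 133 CPM. Angptl7 did not follow in SHF AngII, where 3 UMIs gave 15.8 CPM against 82.2. With 12 and 3 cells these are levels of single cells more than of a class.

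In the AngII libraries fewer genes separated positive cells from the other fibroblasts. In SHF AngII, 12 of 7062 genes stood past 2-fold higher (0.17%) and 16 lower (0.227%), and in CNC AngII 12 of 7091 were higher (0.169%) and 51 lower (0.719%). The whole 95% counting interval lay past 2-fold for 7 higher and 8 lower genes in SHF AngII and for 4 and 21 in CNC AngII, against 72 and 37 in SHF Baseline. The sums of positive cells held 2076071, 7843375 and 3256598 UMIs, so the counting error of a given level was largest in SHF Baseline. Cartilage matrix genes other than Prg4 and Cytl1 had medians of 0.073 and -0.15 in the AngII libraries, chondrogenic regulators 0.15 and 0.30, tendon and ligament genes other than Fmod 0.31 and -0.0045, and adventitial progenitor genes -0.02 and -0.19, against -0.02 and -0.01 for all genes. Pi16 stood at 1158 and 1147 CPM in positive cells and 1272 and 1435 in the others, and was detected after thinning in 79.4 and 81.0% of positive cells against 78.9 and 76.7% (as counted 93.9 and 91.3% against 88.6 and 84.5%).

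The class difference was tested with edgeR's quasi-likelihood test on UMIs summed per library and class, with the library as a block and Benjamini-Hochberg adjustment over all genes. Over the 3 libraries, 1 of 11534 genes was called higher (0.00867%) and 0 lower (0%) at an adjusted p of 0.05. At an unadjusted p of 0.05, 354 were higher and 488 lower, and DESeq2 called 22 higher and 27 lower. The called gene was Npy, which encodes neuropeptide Y, at 67.0, 7.52 and 4.61 CPM in positive cells and 8.21, 1.22 and 0.945 in the others (log2 fold change 2.84 ± 0.18 (SE), edgeR adjusted p = 0.014). Its UMIs came from 16, 9 and 9 positive cells, 1 cell held 18.7, 52.5 and 33.3% of them, and 0 genes were called once each gene's highest cell was left out.

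Leaving out SHF Baseline, an alternative set down with the design, gave 198 genes higher (1.72% of 11528) and 216 lower (1.87%) in positive cells of both AngII libraries. Leaving out SHF AngII instead called 0 genes, and leaving out CNC AngII called 4. The fit of both AngII libraries has 1 residual degree of freedom, so its error is mostly borrowed from other genes. Under 9 other settings it called between 42 and 424 genes, and 10 genes higher and 8 lower were called in all of them. Those 18 were chosen after the values were seen, and Prg4 and Cytl1, which are among the 10, are given no test because they came with the group's name. All adjusted p-values in the next paragraphs are from this edgeR fit, in which the libraries are the replicates.

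Of the genes called higher in all settings, 3 are described first. Cthrc1, a secreted protein of activated fibroblasts, stood at 999.7 and 693 CPM in positive cells against 555 and 427 (log2 fold change 0.80 ± 0.08 (SE), adjusted p = 1.2e-11), with a UMI in 68.2 and 62.5% of cells against 47.9 and 39.1% after thinning (as counted 77.4 and 69.2% against 57.8 and 48.3%). Ddah1, which breaks down inhibitors of nitric oxide synthase, stood at 235 and 163 against 75.5 and 74.5 CPM (log2 fold change 1.45 ± 0.09 (SE), adjusted p = 1.9e-18). Lox, the enzyme that crosslinks collagen and elastin, stood at 1629.5 and 1524 against 1063 and 1023 CPM (log2 fold change 0.62 ± 0.08 (SE), adjusted p = 2.3e-08). Positive cells were the higher class for these 3 genes in both AngII libraries, whereas in SHF Baseline Lox was lower in them, at 207 against 280.5 CPM.

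The other genes called higher in all settings included proteins of the matrix. Timp3, a matrix-bound inhibitor of metalloproteinases, stood at 1544 and 2724 against 1156 and 1796 CPM (log2 fold change 0.53 ± 0.08 (SE), adjusted p = 1.4e-06), and at 2130.0 against 1178 in SHF Baseline. Fbln5, which assembles elastic fibres, stood at 1072 and 1268 against 855 and 976 CPM (log2 fold change 0.37 ± 0.08 (SE), adjusted p = 0.0006). Ccn5, a matricellular protein, stood at 1291 and 1452 against 977 and 1112 CPM (log2 fold change 0.41 ± 0.08 (SE), adjusted p = 0.00011). Unlike Timp3, it was not higher in positive cells of SHF Baseline. Its log2 ratio of SHF AngII over SHF Baseline, by CPM, was 1.09 in positive cells and 0.57 in the others. Ecrg4, at 179 and 100.1 against 93.8 and 50.9 CPM, and S100b, a calcium-binding protein known from Schwann cells and cartilage, at 43.2 and 53.4 against 23.9 and 27.9 CPM, had log2 fold changes of 0.97 ± 0.09 (adjusted p = 1.7e-12) and 0.91 ± 0.11 (adjusted p = 1.1e-08). Summed Schwann markers were 65.7 and 88.1 CPM in positive cells against 49.4 and 61.1 (109.8 against 31.0 in SHF Baseline), S100b itself being one of them, and their part in the result was not tested.

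The 8 genes called lower in all settings began with 2 that were lower in each library. Clec3b (tetranectin, a secreted plasminogen-binding lectin) stood at 652, 169 and 132 CPM in positive cells of the 3 libraries and at 1359.9, 320.0 and 343 in the others. In the AngII fit its log2 fold change was -1.11 ± 0.09 (adjusted p = 5.3e-15), and over the 3 libraries its adjusted p was 0.055. Tnxb (tenascin X, which organises collagen) stood at 139.7, 77.4 and 62.0 against 286, 134 and 120.2 CPM (log2 fold change -0.84 ± 0.09 (SE), adjusted p = 5.2e-10, and 0.055 over the 3 libraries). These were lower in the positive cells of each library by about the same factor, with log2 ratios of -1.06, -0.92 and -1.37 for Clec3b and -1.03, -0.79 and -0.94 for Tnxb. Both missed the threshold of 0.05 when the 3 libraries were fitted together.

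Cdkn1a (p21, an inhibitor of cell division) stood at 112 and 89.4 against 184 and 143 CPM (log2 fold change -0.68 ± 0.08 (SE), adjusted p = 4.2e-08), and Mmp3 (stromelysin, a matrix protease) at 491 and 313 against 773 and 516 CPM (log2 fold change -0.67 ± 0.08 (SE), adjusted p = 3e-09). In SHF Baseline both were slightly higher in positive cells, at 310.2 against 282 and 356 against 287 CPM. Sparcl1, at 7.78 and 6.76 against 18.0 and 28.8 CPM, Smim41, at 29.6 and 22.1 against 54.3 and 54.7, and Cxcl13 (a B cell chemoattractant), at 0.892 and 0.921 against 10.6 and 11.2, had adjusted p-values of 2e-08, 8.3e-10 and 3.8e-12. Spp1 stood at 125 and 232 against 277 and 595 CPM (log2 fold change -1.23 ± 0.08 (SE), adjusted p = 4.8e-18), opposite to SHF Baseline, and 1 cell held 43.5 and 29.7% of its UMIs in positive cells. In the same fit 4 of 7 macrophage markers (Cd68, C1qa, C1qb and Lyz2, median log2 fold change -1.12) and 3 of 6 mesothelial markers (Msln, Upk1b and Wt1, median -1.14) were called lower in positive cells, and their part in these results was not tested. Some genes named in this report share exon sequence with another gene on the same strand in the GENCODE annotation. They include Spp1 (Gm42793), Cfb (Gm20547), Trps1 (Mir1907) and Stmn1 (Gm23634), and reads of those stretches cannot be assigned to either gene.

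**Figure D4:**
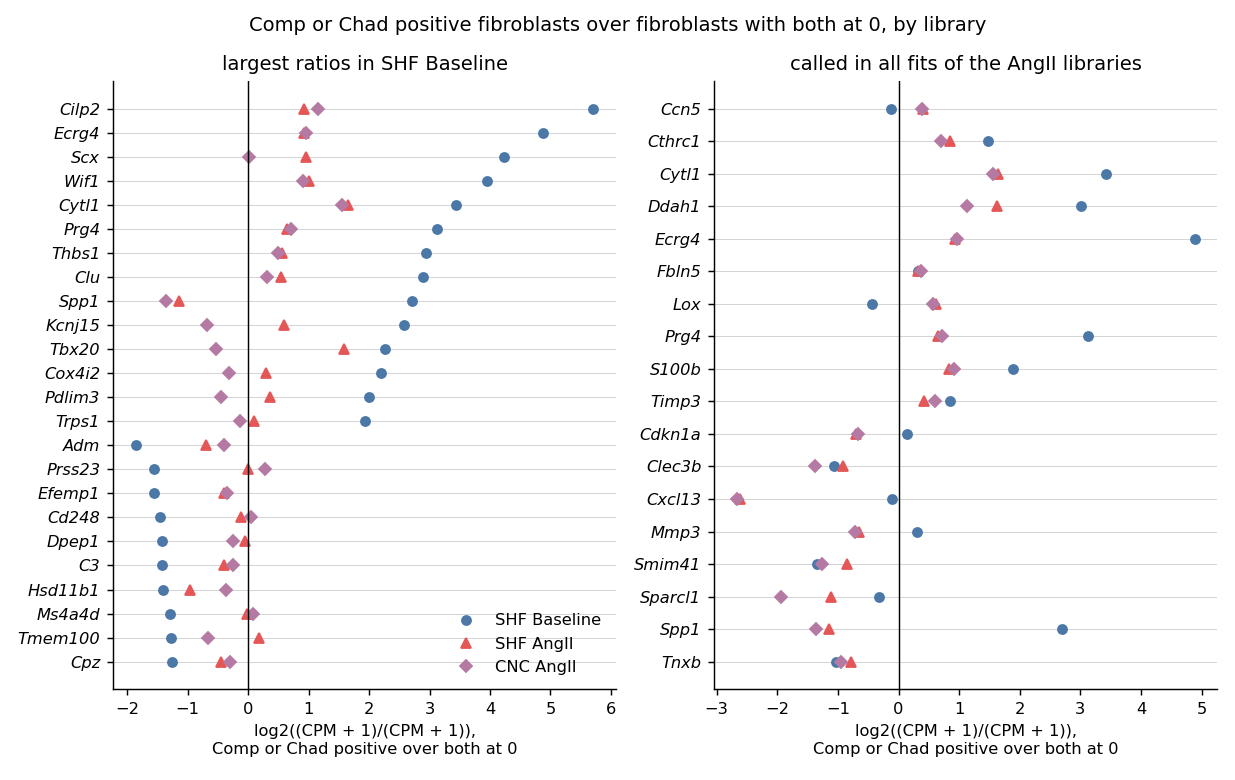
Log2 ratio of positive cells over cells with both genes at 0 (horizontal axis) in SHF Baseline (circles), SHF AngII (triangles) and CNC AngII (diamonds), for the 14 highest and 10 lowest genes of SHF Baseline on the left and the 18 genes called in all AngII fits on the right. On the left the AngII symbols lie near 0 for most genes. On the right Clec3b, Tnxb and Smim41 lie below 0 in all 3 libraries, and Spp1, Lox, Cdkn1a and Mmp3 are among the genes that change side.

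Among the lists, counts in the AngII fit are read against the 1.72% called higher and 1.87% called lower of all genes, where the median log2 fold change was 0.00. The counts depend on the setting, since this fit went from 414 calls to 121 and 56 with thinning and 42 with DESeq2. Of the genes named as called in this and the next paragraph, only Fbln5, Lox, Cthrc1, Ddah1 and Spp1 were called in all settings. Of 21 elastic fibre and crosslinking genes, 7 were called higher (Eln, Fbln2, Fbln5, Mfap5, Ltbp2, Lox and Loxl3) and 3 lower (Fbln1, Efemp1 and Ltbp1), median 0.11. Of 16 genes of activation by injury, 7 were called higher (Cthrc1, Postn, Fn1, Lox, Ccn2, Ddah1 and Col8a1) and Spp1 lower, median 0.21. Of 14 cell cycle genes, 5 were called higher (Mki67, Cdk1, Birc5, Plk1 and Aurkb) and 0 lower, median 0.30. Of 25 ADAMTS, MMP and inhibitor genes, 2 were called higher and 6 lower, median 0.00. Of 11 cartilage matrix genes other than Prg4 and Cytl1, 3 were called higher (Col2a1, Acan and Col11a1) and 2 lower (Matn2 and Col9a1), and Col2a1 and Acan stood at no more than 15.0 CPM.

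Chondrogenic regulators had 5 called higher (Sox9, Sox4, Gdf10, Chrdl1 and Fgf18) and 0 lower of 18, and Wnt modulators 5 and 2 of 14. The list of fibrillar, fibril-associated and other collagens had 4 higher (Col5a2, Col8a1, Col8a2 and Col12a1) and 0 lower of 16. TGF-beta genes had 4 and 2 of 22, chemokines and inflammation 2 and 5 of 22, and adventitial progenitor genes 0 and 1 (Cd55) of 13. For unfolded protein response genes the fit called 0 of 20. In the fit over the 3 libraries each of the 18 lists had 0 genes called. Mki67, the proliferation antigen, had a UMI after thinning in 9.90% of positive cells of SHF AngII against 9.20% of the others, in 11.0 against 8.80% in CNC AngII, and in 0 of 181 (which allows up to 1.66%) against 0.346% in SHF Baseline (as counted 18.0 against 13.9%, 19.2 against 12.5% and 0 of 200 against 0.307%).

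Positive cells of SHF AngII were set against those of SHF Baseline by the same summed levels. Each is 1 library, the tables differ in their gene lists, and 25 genes that stood past 4-fold the same way in positive cells, comparison cells and smooth muscle cells were set aside. Of 2609 genes with at least 50 CPM, 174 stood past 2-fold higher (6.67%) and 258 lower (9.89%) in SHF AngII among positive cells. Among comparison cells, 140 of 2613 were higher (5.36%) and 238 lower (9.11%). TMM scaling raised these ratios by 0.33 in positive and 0.25 in comparison cells on the log2 scale. After it the counts were 351 higher and 165 lower in positive cells, and 246 and 151 in the others, so that the higher share went from 40.3 to 68.0% and from 37.0 to 62.0%. The ratios that follow are after scaling.

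Cilp2 had a log2 ratio of -5.53 in positive cells against -0.89 in the others, Wif1 -4.60 against -1.73, Cytl1 -3.82 against -2.11, and Ecrg4 -3.67 against 0.21. Among positive cells Ecrg4 went from 2875 to 179 CPM, while the others held 96.5 and 93.8 CPM. Angptl7 (-3.29 against -2.61), Tbx20 (-3.15 against -2.58), Trps1 (-2.96 against -1.20) and Ptn (pleiotrophin, a heparin-binding growth factor; -2.98 against -0.74) were the others of the 8 lowest. Of these 8, 6 (all but Angptl7 and Ptn) had been picked as highest in the positive sum of SHF Baseline, the denominator of this ratio, and that choice favours a lower ratio. Whether the classes differed in their response was not tested, since each group is 1 library. The positive cells of the SHF libraries also differ in makeup, with Chad in 20.5 and 3.05% of them.

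Of the genes highest in SHF AngII, Ccl2, a monocyte chemoattractant, stood at 2.89 CPM in positive cells of SHF Baseline, where the other fibroblasts held 118, and at 514 against 461 in SHF AngII (log2 ratios 7.38 and 2.21). Fabp4 (5.16 against 4.34), the tubulin regulator Stmn1 (4.98 against 3.26), Plac8 (4.81 against 2.16) and the cell cycle gene Cks2 (4.27 against 3.16) followed. Ddah1, Serpinb1a and Cfb (complement factor B) completed the 8, at 4.01, 3.99 and 3.86 in positive cells. Cthrc1 was among the genes set aside. Lox went from 207 to 1629.5 CPM (3.30 against 2.17). Prg4 went from 377 to 503 CPM in positive cells (0.74) and from 42.3 to 321 in the others (3.15). All 8 of the highest genes stood higher in SHF AngII in both classes.

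**Figure D5:**
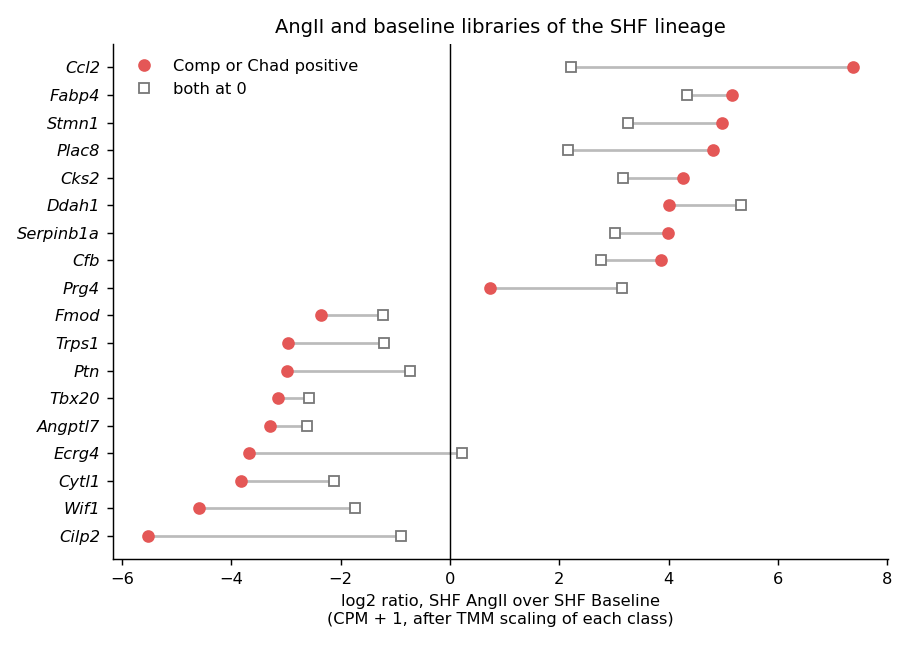
Log2 ratio of SHF AngII over SHF Baseline after TMM scaling (horizontal axis) for 18 genes, in positive cells (filled circles) and in cells with both genes at 0 (open squares), joined by a line. The 8 highest genes lie above 0 in both classes, and Ecrg4 lies at -3.67 in positive cells and 0.21 in the others.

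Few genes stood past 2-fold between positive cells of the AngII libraries. Each lineage is 1 library there, and the difference was not tested. Of 2447 genes, 9 stood past 2-fold higher in CNC AngII than in SHF AngII (0.368%) and 15 lower (0.613%), and in comparison cells 9 (0.367%) and 5 (0.204%) of 2453. Higher in CNC AngII were Serpinb6b (306 against 76.9 CPM), Cemip, which degrades hyaluronan (84.4 against 22.3), and Bdnf, a neurotrophin (81.1 against 21.4). Dio2, Lmcd1, Hp, Tnfrsf11b and Cpe were the others of the 8 highest, with log2 ratios from 1.49 (Dio2) to 1.09 (Cpe). Bdnf and Hp each had at least 15% of their UMIs in 1 cell in both libraries.

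Lowest was Tcf21, a transcription factor of epicardium-derived fibroblasts, at 24.9 CPM in CNC AngII and 110.3 in SHF AngII (log2 ratio -2.10, against -0.81 in comparison cells). A single cell held 37.0% of its UMIs in CNC AngII. Epyc (epiphycan, a cartilage proteoglycan) stood at 31.9 against 131 CPM, and Cdkn1c (p57, an inhibitor of cell division) at 41.8 against 116. Gm12840, Pcsk5, Sulf2, Adamtsl2 and Gas1 completed the 8 lowest. Of the genes that name the cells, log2 ratios were 0.45 for Comp, 1.03 for Chad, -1.19 for Angptl7, 0.19 for Fmod, 0.08 for Prg4 and 0.26 for Cytl1.

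Macrophage, endothelial, mesothelial, red blood cell and T or B cell markers were low in positive cells. Summed macrophage markers stood at 10.6, 14.8 and 123 CPM in positive cells against 9.32, 17.0 and 324 in the others, with 5, 5 and 7 of 8 detected, so CNC AngII carried more of them than the SHF libraries in both classes. There C1qa stood at 33.5 CPM in positive cells against 96.4, with 58.7% of its UMIs in 1 positive cell, and Ptprc was at 0 by the gate. Endothelial markers stood at 2.41, 4.72 and 2.46 CPM against 6.23, 5.93 and 3.94, and mesothelial markers at 2.41, 16.1 and 0.614 CPM against 6.15, 28.6 and 23.6. Pericyte markers stood at 303, 143 and 212 CPM against 305, 213 and 188, beside 318, 391 and 458 CPM in smooth muscle cells. Of the adipocyte markers 2 of 4 were among the genes used, Fabp4 and Plin1, of which Plin1 was at 0 in positive cells. Their sum stood at 5.30, 178 and 185 CPM in positive cells against 7.35, 141 and 119 in the others. Fabp4 was called higher in the AngII fit, though not in all settings. Red blood cell and T or B cell markers stood at no more than 0.482 CPM in either class. The part of these RNAs in the class ratios was not tested.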

How the data were processed

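The deposited files hold raw UMI counts per gene and cell barcode, made by the authors and not normalized. The submitters' processing notes name mm10, fastp, STAR 2.5 and HTSeq 0.6.1, and the annotation is not given in the sources used here. The SHF Baseline table lists 18760 genes and the AngII tables list 32285, so names were matched directly (17594 genes) or through a unique synonym (518), and 18112 genes were used.

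Counts were summed over the cells of a class in each library and expressed as CPM. Ratios within and between libraries are log2((CPM + 1)/(CPM + 1)) with exact Poisson or conditional binomial intervals at 95%, and genes needed a mean of 10 CPM for the class ratios and 50 CPM for the ratios between libraries. Class sums were tested with edgeR 4.0.16 (TMM, filterByExpr, quasi-likelihood, library block) and, as an alternative, DESeq2 1.42.0. Genes of the gate and mitochondrial genes could not be called. On simulated sums of 11570 genes, 89 of 99 genes changed 2-fold and 97 of 97 changed 4-fold were recovered, with 4 false calls. The simulation gave all genes 1 common dispersion and each changed gene the same fold in all 3 libraries. Many class ratios in the data differ between libraries, so recovery there cannot be read from it. The fit of the AngII libraries alone was not simulated. Labels name no separate mice, so no p-value measures a spread between mice. Those over the 3 libraries measure only the spread between these libraries. Those of the AngII fit, with 1 residual degree of freedom, rest mostly on error borrowed from other genes. Barcodes marked by Scrublet (scanpy 1.11.5) were kept and left out as an alternative.

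The cells, the 18 lists and the marker lists were chosen with earlier results of these data known. By the rule set down with the design, called genes with the same sign in all libraries and at least 20 CPM, the group's 6 genes, list genes with at least 10 CPM, and the 8 highest and 8 lowest ratios between libraries are named. The 14 highest and 10 lowest genes of SHF Baseline and the genes called in all AngII fits were added after the values were seen. Coordinates and exon overlaps are from GENCODE vM21. Alternatives covered normalization, filters, depth, doublets, thresholds, the comparison cells and each library left out.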

Additional observations from a re-analysis of the deposited data

Results flagged for a closer look

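The 3 genes flagged here differed past 2-fold between Comp or Chad positive fibroblasts and fibroblasts with both genes at 0 in each library. The direction in SHF Baseline was opposite to that in both AngII libraries, and this was not tested because each group is 1 library. Lox, Cdkn1a and Mmp3, described above, also changed direction, with less than 2-fold between the classes in SHF Baseline. Spp1 (osteopontin) had log2 ratios of 2.70, -1.14 and -1.36 in SHF Baseline, SHF AngII and CNC AngII. Thbs4 (thrombospondin 4, a matrix protein of tendon) had log2 ratios of 2.17, -1.07 and -2.58, from levels of 20.2, 20.3 and 4.61 CPM in positive cells against 3.73, 43.6 and 32.5 CPM. Col9a1 (a chain of type IX collagen) had log2 ratios of 2.04, -1.73 and -1.36, from 29, 1 and 1 UMIs in positive cells.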

How the results depend on the processing

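The number of genes called over the 3 libraries (1) was 3 with RLE size factors, 49 with DESeq2, 92 with no filter, 5 with a mean of at least 10 CPM and 0 without the library block. It ranged from 0 to 414 when 1 library was left out. It was 32 and 13 with cells thinned after and before the threshold, 371 with Chad alone as the criterion, 3 against all other gated fibroblasts and 7 with Myh11 at 0. With alternatives added after the data were seen it was 6 without Chad positive cells and 0 without each gene's highest cell. For the AngII libraries alone, added alternatives gave 121 and 56 calls after thinning after and before the threshold, 191 against all other gated fibroblasts, 167 without doublets and 42 with DESeq2, against 414. Under the remaining alternatives these counts stayed within 1.5 times.

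The share of positive cells with a threshold of 1 UMI was 10.0, 24.2 and 35.4%, with 3 UMIs 5.09, 13.5 and 22.9%, and after thinning 9.26% in SHF AngII and 18.7% in CNC AngII. Directions that reversed were few, at 4 of 2100 checks of class ratios in 1 library and 6 of 1304 checks of genes in the fit. Changes of size were more common. Of the class ratios 445 of 2100 moved, of the ratios between libraries 101 of 352, and of the summaries 29 of 81. With Chad alone as the criterion, log2 fold changes were 3.03 for Saa3, 2.51 for Thbs4, 3.52 for Spp1, -1.58 for Fabp4 and -1.88 for Cfb. Leaving out 1 library moved Plac8 between -0.59 and 0.34. In SHF Baseline the log2 ratio of Bdnf was -0.012 when thinned before the threshold and -0.24 under the stricter cell filter (1000 genes, 5% mitochondrial). In CNC AngII that of C1qa was 0.29 with Myh11 at 0, and that of Cytl1 was -0.44 without Chad positive cells. The cause was not tested.

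Positive and comparison cells were paired within a library by the library block, and the labels carry no replicate numbers for any other pairing. Counting error was largest in SHF Baseline, whose positive sum held 2076071 UMIs. In the AngII libraries the number of cells limited Chad, found at 2 UMIs in 12 and 3 cells, and genes with many UMIs in 1 cell, such as Cytl1 and Spp1.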
